A study of Rattus norvegicus with 12 samples.

Results

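Macrophages and their monocyte precursors carry a set of receptors and lysosomal proteins by which they are recognised in tissue, and 10 genes of this kind were followed here in the injured rat kidney: Cd68, Trem2, Gpnmb, Msr1, Csf1r, Cd163, Mrc1, Adgre1, Fcgr3a and Cd14. They were taken by gene name from the annotation of the array, where Adgre1 carries its older name Emr1. The 10 genes had 11 probes, Csf1r having 2, and 8 of the 10 gave enough signal to be tested among 18504 genes. Cd163 and Mrc1 were not tested because no group had all 4 arrays well above background.

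The samples were left kidneys of 10-week-old female F344 rats, an inbred strain, measured on 12 single-colour arrays from 12 rats. In the injury groups the left kidney was made ischaemic and then reperfused (ischaemia-reperfusion injury, IRI). 4 rats were killed 3 days after the operation and another 4 at 7 days. The control group of 4 rats had a sham operation and was killed at 7 days, so that the day 3 kidneys have no sham kidneys of their own time, and both injury groups are set against the same 4 sham arrays. The operation was on 1 kidney, and the labels name no drug or genetic change in any group. The title of the series concerns adaptive and maladaptive repair of tubules, and the comparisons ask which transcripts differ early and late after the injury.

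The members fall into roles that are known from other work. Csf1r is the receptor for the growth factors CSF1 and IL-34, on which most tissue macrophages depend. Trem2 binds lipids and lipoproteins and signals through the adaptor TYROBP, while Fcgr3a binds antibody-coated targets and signals through the adaptor chain FCER1G. Cd14 hands bacterial lipopolysaccharide to TLR4 and its partner MD-2, encoded by Ly96. Msr1, Cd163 and Mrc1 are endocytic receptors for modified lipoproteins, for the haptoglobin-haemoglobin complex and for mannose-bearing glycoproteins. Cd68 and Gpnmb are glycoproteins of lysosomes and related membranes, and Gpnmb is also made by osteoclasts and melanocytes and by injured epithelium. Adgre1 encodes F4/80, the classical surface marker of rodent macrophages.

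The array measures each gene through a probe of 60 bases, and the probe letters bear on what a value stands for. The 5 shown include Trem2, with the highest fitted fold change over sham at day 7, and Fcgr3a, the 1 member called lower then. The others are Adgre1, Cd163 and Mrc1, whose signals were dim. Positions are those of the array annotation on the rat build rn4, and the letters are as in the scanner files, 5′ to 3′. The Adgre1 and Mrc1 probes match the genome over spans of 1986 and 2608 bases, and the Adgre1 probe lies on unplaced sequence.
Trem2 probe, chr9:8059065-8059124, - strand: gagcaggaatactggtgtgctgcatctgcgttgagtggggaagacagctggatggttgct
Fcgr3a probe, chr13:86877181-86877240, + strand: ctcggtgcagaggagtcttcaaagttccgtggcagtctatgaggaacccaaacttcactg
Adgre1 probe, chrUn:64821266-64823251, + strand: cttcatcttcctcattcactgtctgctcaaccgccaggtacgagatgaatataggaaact
Cd163 probe, chr4:160423704-160423763, + strand: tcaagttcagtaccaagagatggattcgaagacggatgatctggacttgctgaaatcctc
Mrc1 probe, chr17:88489156-88491763, + strand: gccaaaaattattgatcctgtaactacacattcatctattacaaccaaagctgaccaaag

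Over all 30367 probes that were not controls, the share of G and C had quartiles of 38.3% and 48.3% with a median of 45.0%. The Trem2 probe had 55.0% and the Mrc1 probe 35.0%, so these members are not alike in base composition. For this reason no member's level is set against that of another member. The sums over gene lists given below add probes of different genes without a correction for this.

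The sequence before the transcription start was matched in RefSeq (build GRCr8) for 9 of the 10 members, all but Msr1. The motif GAGGAA, read on either strand, is the core that the myeloid factor PU.1 (Spi1) binds. It was present in the 250 bases upstream of 8 of the 9 members, against 23.3% of 33469 rat promoters. Cd163 was the member without it. The E-box CATGTG was found in 3 of 9 (Gpnmb, Cd68 and Mrc1) against 12.1% of promoters, and CACGTG in 0 of 9 against 5.59%. The motifs do not overlap one another in letters. The upstream bases of the 3 members with the highest fitted fold changes at day 3 and of Cd163 are shown. GAGGAA or its reverse complement TTCCTC is in capitals. A match describes the letters only.
Trem2 upstream, chr9:20151780-20152029, - strand: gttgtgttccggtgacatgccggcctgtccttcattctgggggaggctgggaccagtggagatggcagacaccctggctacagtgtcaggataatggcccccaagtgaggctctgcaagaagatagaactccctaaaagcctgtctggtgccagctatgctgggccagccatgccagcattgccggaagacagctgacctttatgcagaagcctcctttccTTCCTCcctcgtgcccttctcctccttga
Gpnmb upstream, chr4:79340878-79341127, + strand: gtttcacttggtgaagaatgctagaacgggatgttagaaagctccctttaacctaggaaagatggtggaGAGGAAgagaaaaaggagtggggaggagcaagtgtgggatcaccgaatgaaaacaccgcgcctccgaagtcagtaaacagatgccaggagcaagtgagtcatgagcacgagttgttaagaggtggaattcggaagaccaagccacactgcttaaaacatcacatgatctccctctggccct
Cd68 upstream, chr10:54882442-54882691, - strand: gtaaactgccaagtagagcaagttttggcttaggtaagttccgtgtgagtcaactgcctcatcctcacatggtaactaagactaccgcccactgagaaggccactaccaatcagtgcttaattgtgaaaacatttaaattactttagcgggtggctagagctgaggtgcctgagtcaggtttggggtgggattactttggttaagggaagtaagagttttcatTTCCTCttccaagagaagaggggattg
Cd163 upstream, chr4:158770524-158770773, + strand: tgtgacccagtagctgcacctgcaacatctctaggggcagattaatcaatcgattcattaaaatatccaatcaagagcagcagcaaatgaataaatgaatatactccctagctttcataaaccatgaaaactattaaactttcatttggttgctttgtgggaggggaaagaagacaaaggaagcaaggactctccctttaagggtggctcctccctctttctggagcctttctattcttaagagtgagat

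Each value in what follows is the log2 of the scanner's processed signal minus the log2 of the 75th percentile of its array, so that 0 is the level of a spot brighter than 75% of the spots of that array. Fold changes are from the limma fit over all 12 arrays, given with the standard error (SE) and with p adjusted by Benjamini-Hochberg over the 18504 genes, and a gene is called at an adjusted p under 0.05. Arrays differed in brightness. The 75th percentile averaged 328 ± 72.6 (SD, n = 4) in sham, 714 ± 34.5 at day 3 and 502 ± 60.9 at day 7, in each pair of groups without overlap (two-sided exact permutation p = 0.0286, the smallest that 4 against 4 allows). The lowest was sham replicate 3, at 225, with 65% of spots well above background against 67.1% to 80.6% on the other arrays. Scaling by total signal instead moved the median gene from -0.13 to 0.15 at day 3 and from -0.07 to 0.17 at day 7 against sham, and it raised the share of calls that were higher from 42.2% to 58.6% and from 43.6% to 78%. With the authors' deposited value table that share at day 7 was 55.3%. The 12 arrays lay on 3 slides, each with all 3 groups, and in 2 scan batches.

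At day 3 the phagocyte genes stood well above sham. Of the 8 tested members 7 were called higher and none lower, against 24.2% higher and 33.1% lower of all tested genes, and in the same 7 the 4 day 3 arrays all lay above the 4 sham arrays, against 22.2% of all genes. The exception was the brighter probe of Csf1r. The median of the 8 was a log2 fold change of 2.02, with Gpnmb and Msr1 fitted or at their lower bounds, beside -0.13 over all genes, and 4 of the 8 were called and at least 4-fold higher, against 3.64% of all genes. These counts are a description only, since Gpnmb, Msr1 and Adgre1 passed the filter on dim probes solely through the day 3 arrays and Cd68 and Trem2 solely through the injury groups. Only Csf1r, Fcgr3a and Cd14 were well above background on all 12 arrays.

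At day 7 fewer members were apart from sham. Trem2 and Gpnmb were still above sham, 1 member (Fcgr3a) was below it, and 5 were not called, against 8.23% higher and 10.6% lower of all tested genes. The arrays of day 7 lay wholly above sham in 2 members, Trem2 and Cd68, against 9.04% of all genes. The median of the 8 was 0.84, or 0.66 with Gpnmb at its lower bound, beside -0.07 over all genes. From day 3 to day 7 none was called higher and 4 were called lower (Gpnmb, Msr1, Fcgr3a and Cd14), against 18% higher and 13.4% lower of all genes, and in 6 the day 7 arrays lay wholly below the day 3 arrays, against 17.5%. The median difference was -1.22, beside 0.05 over all genes. In whole-kidney RNA, fewer cells of a type and less RNA per cell cannot be told apart, and neither can more cells and more RNA per cell.

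**Figure D1:**
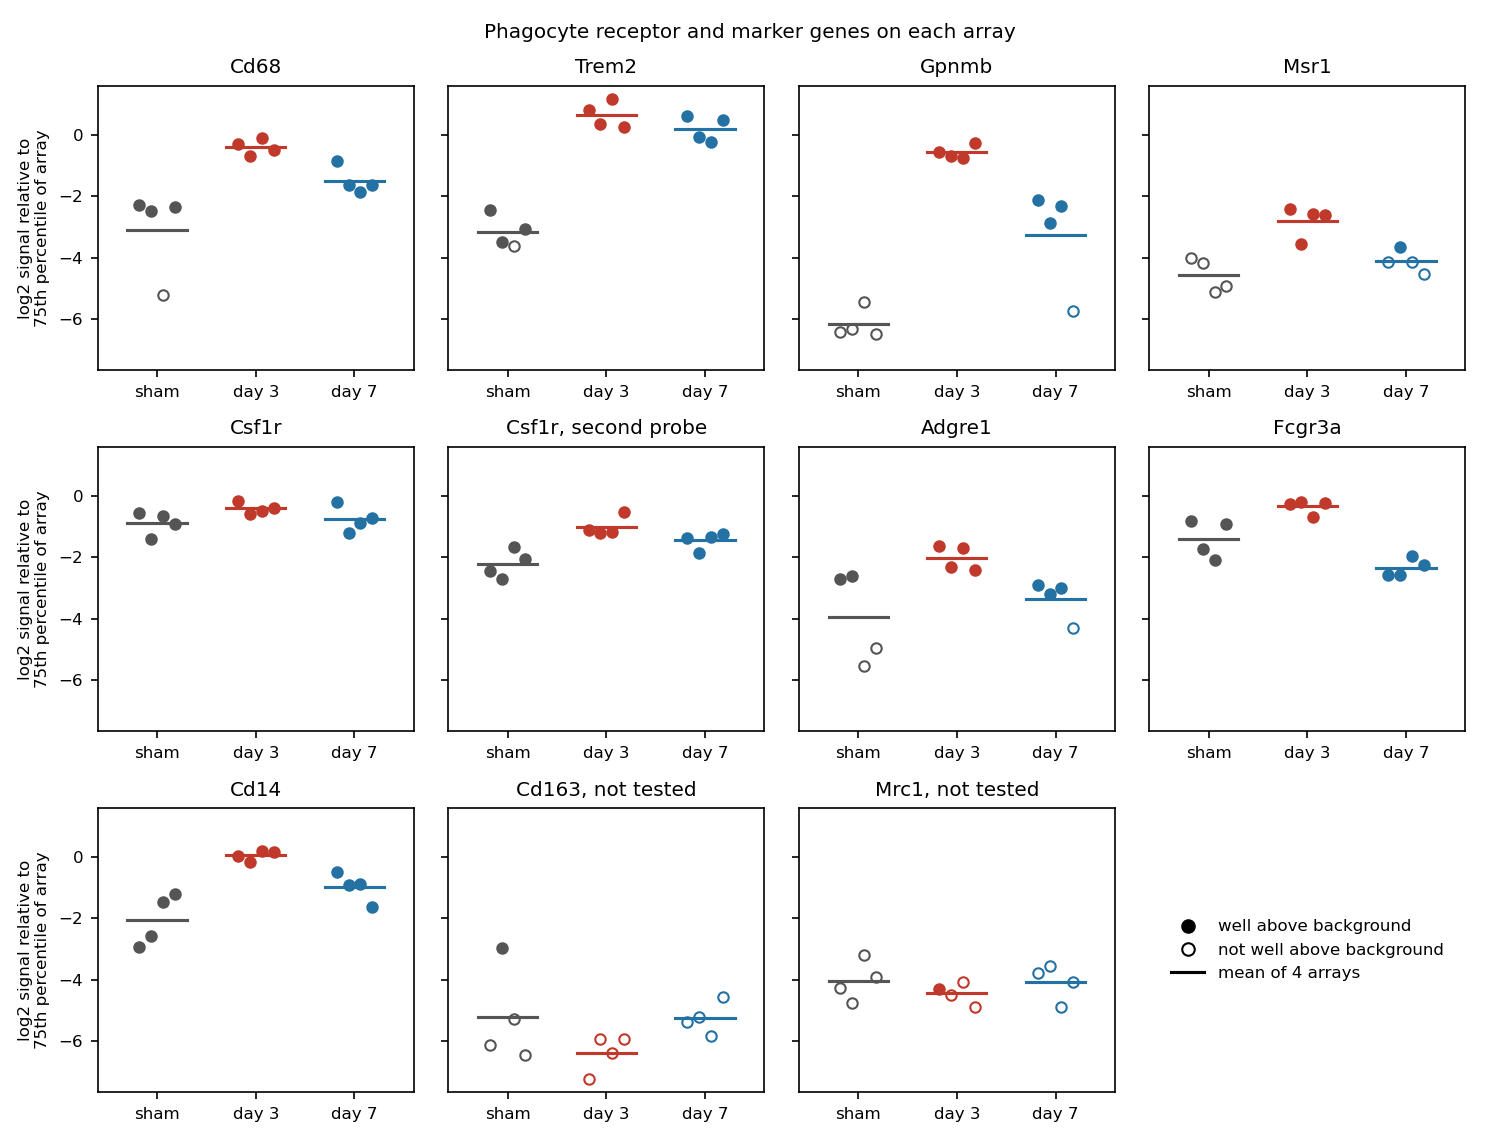
Level of each member on every array, as log2 of the signal over that array's 75th percentile (vertical axis), for sham, day 3 and day 7 (4 arrays each, replicates 1 to 4 from left to right, bars at the mean). Open points were not well above background; Trem2 stayed between -0.21 and 0.61 at day 7 while Fcgr3a lay between -2.57 and -1.97, below its day 3 arrays.

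The lipid receptor gene Trem2 had the highest fitted fold change of the members at day 7. Gpnmb has only a lower bound there, so the order of these 2 genes is not known. Its sham arrays read -2.45, -3.50, -3.60 and -3.06, the third of these not well above background. The day 3 arrays read 0.83, 0.37, 1.18 and 0.28 and the day 7 arrays 0.61, -0.06, -0.21 and 0.49. The injury groups overlapped each other, and neither came within 2 log2 units of the highest sham array. Trem2 rose 14.1-fold at day 3 (log2 3.82 ± 0.30 SE, adjusted p = 5.12e-06) and was 10.3-fold above sham at day 7 (3.36 ± 0.30, adjusted p = 0.000102). Of all genes, 0.508% had a higher fold change at day 3 and 0.0865% at day 7, where it ranked 17 of 18504. The difference between the 2 days was -0.46 ± 0.30 (95% confidence interval -1.1 to 0.19, adjusted p = 0.25). Within slides 1, 2 and 3, which hold 1 or 2 rats of a group, the day 3 difference was 3.93, 4.05 and 3.97 and the day 7 difference 2.70, 3.29 and 4.15.

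The partners of Trem2 were measured beside it. Tyrobp, its signalling adaptor, rose by 1.84 ± 0.23 in log2 at day 3 (adjusted p = 6.47e-05) and was 1.12 ± 0.23 above sham at day 7 (adjusted p = 0.00786). Apoe, a lipoprotein that Trem2 binds, was not called at day 3 (0.23 ± 0.17, adjusted p = 0.253) and rose by day 7 (1.18 ± 0.17, adjusted p = 0.00121). The difference of Apoe between the days was itself called (0.95 ± 0.17, adjusted p = 0.00255). The list of adaptors, ligands and partners of Trem2 had 13 tested genes. At day 3, 6 were higher and 1 lower (median 0.78), against 24.2% and 33.1% of all genes. At day 7, 5 were higher and 1 lower (median 0.49), against 8.23% and 10.6%. The members of that list with the highest called changes were Clu, an apolipoprotein that injured tubules also make (4.74 at day 3 and 3.63 at day 7), and Lgals3, a lectin of macrophages and of injured epithelium (3.35 and 2.16). Syk, the kinase downstream of both adaptors, had 1.25 ± 0.51 at day 3 with an adjusted p of 0.0502, and was called without sham replicate 4 (0.0144), sham replicate 3 (0.0462) or day 3 replicate 1 (0.0368).

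Gpnmb was the member with the highest fitted fold change at day 3. None of the sham arrays was well above background, with intensities between 4.02 and 5.19 units. At day 3 the values were -0.54, -0.67, -0.75 and -0.25, and at day 7 they were -2.13, -2.87, -2.30 and -5.75, of which the last, replicate 4, was not well above background. The day 3 kidneys thus held Gpnmb signal on all 4 arrays and the day 7 kidneys on 3 of 4. Because sham has only a bound, Gpnmb was at least 10.6-fold higher at day 3 and at least 1.63-fold higher at day 7. Each bound is the mean of the injury group over the dimmest level at which a sham spot was still well above background. The bounds were not tested. The adjusted p was 3.4e-05 at day 3 and 0.0102 at day 7 for the fitted differences, which use the sham readings near background. Gpnmb fell from day 3 to day 7 by 2.71 ± 0.64 in log2, or 6.54-fold (adjusted p = 0.00965). That decrease was 1.88 without day 7 replicate 4 (adjusted p = 0.00271), and the bound on day 7 against sham moved from 1.63-fold to 2.89-fold. Within slides the difference between the days was -2.12, -1.91 and -3.27, the last with replicate 4.

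Other sources of Gpnmb were looked at through 9 genes of osteoclasts and melanocytes. Of these 8 had a probe, 3 passed the filter, and 2 were lower at day 3, Acp5, an acid phosphatase gene, by 1.41 ± 0.14 in log2 and Mlana, which was well above background on 3 of 4 sham arrays and 1 of 4 day 3 arrays. Of all genes, 33.1% were lower at day 3. The scaled signals were also summed over the 8 genes with a probe, those near background included. That sum was between 2.5 and 3.14 in sham, between 0.92 and 1.31 at day 3 and between 1.85 and 2.54 at day 7. Most of that sum is Acp5, and the part of such cells in the Gpnmb signal was not tested. The gene whose profile over the 12 arrays was most like that of Gpnmb among those with a name was Adra1d (Pearson r = 0.988), followed by Havcr1 (r = 0.983), which encodes the tubular injury protein KIM-1, and Tubb3 (r = 0.982). These and the profile correlations of the other members are over arrays that share the group differences.

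The lysosomal marker Cd68 read -2.30, -2.47, -5.22 and -2.36 on the sham arrays. Replicate 3 stood apart and was not well above background. The day 3 arrays read -0.29, -0.68, -0.11 and -0.47, and the day 7 arrays -0.84, -1.62, -1.85 and -1.63. The 3 groups did not overlap, with day 7 in between. Cd68 rose 6.50-fold at day 3 (2.70 ± 0.55, adjusted p = 0.00135), and without sham replicate 3 the value was 1.99 (adjusted p = 9.7e-05). At day 7 it was not called (1.60 ± 0.55, adjusted p = 0.0601), while without sham replicate 3 the smaller value of 0.89 was called (SE 0.23, adjusted p = 0.0287). Within slides the day 3 difference was 2.22, 2.09 and 4.55 and the day 7 difference 0.70, 0.62 and 3.99, the last of each on the slide of sham replicate 3. At day 7 a block for slide gave an adjusted p of 0.0401, one for scan batch 0.0457 and the total-signal scaling 0.0353, so the call turns on such choices.

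Genes of the lysosome and phagosome that phagocytes use heavily were counted beside Cd68. Of 23 tested, 12 were higher and 3 lower at day 3 (median 0.60), against 24.2% and 33.1% of all genes. At day 7, 7 were higher and 1 lower (median 0.54), against 8.23% and 10.6%. Those with the highest called changes at day 3 were the protease genes Lgmn (2.51) and Ctsk (2.10, with 1 of 4 sham arrays well above background) and the small GTPase gene Rab7b (2.03). Ctsd, for the lysosomal protease cathepsin D, was 1.35 above sham at day 7. Atp6v0d2, a proton-pump subunit that the kidney's own tubules also make, fell by 1.76 at day 3 and was not called at day 7 (0.24). The most similar named profiles to that of Cd68 were Fcer1g (r = 0.986), the cathepsin gene Ctss (r = 0.982) and Scamp4 (r = 0.98). These correlations take in sham replicate 3, where Cd68 read -5.22 and was not well above background. Fcer1g also had its lowest sham value on that array (1.48).

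Csf1r gave different answers by probe. Its brighter probe read -0.56, -1.40, -0.65 and -0.90 in sham, -0.17, -0.59, -0.47 and -0.39 at day 3 and -0.20, -1.20, -0.88 and -0.72 at day 7. These groups overlapped, and the fold change of 1.39 at day 3 was not called (0.47 ± 0.23, 95% confidence interval -0.04 to 0.98, adjusted p = 0.102), nor was that of 1.09 at day 7 (0.13 ± 0.23, adjusted p = 0.75). The second probe, which starts 12195 bases farther along the gene in rn4, read -2.44, -2.70, -1.68 and -2.05 in sham, -1.11, -1.21, -1.18 and -0.52 at day 3 and -1.37, -1.85, -1.33 and -1.23 at day 7. At that probe, in the fit over 21071 probes, day 3 was 2.32-fold above sham (1.21 ± 0.24, adjusted p = 0.00133) and day 7 was 1.71-fold above it (0.77 ± 0.24, adjusted p = 0.0467). The day 3 difference between the probes, taken within each array, was 0.74 (two-sided exact permutation p = 0.0286, adjusted p = 0.0858 over 3 comparisons). The brighter probe was called at day 3 under the total-signal scaling (adjusted p = 0.0195), and so was the mean of both probes (0.84, adjusted p = 0.00523). Within slides the brighter probe differed from sham by 0.26, 1.13 and 0.06 at day 3 and by -0.47, 0.52 and 0.19 at day 7. The named profiles most like it were the interferon-induced gene Ifit2 (r = 0.895), Dclk1 (r = 0.877) and Polr2h (r = 0.864).

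Of the ligands of Csf1r, Il34, which tubule cells make, was 1.14 ± 0.16 above sham in log2 at day 3 (adjusted p = 9.88e-05) and 0.96 ± 0.16 above it at day 7 (adjusted p = 0.0024). Csf1 was higher at day 3 (1.59 ± 0.43, adjusted p = 0.00816) and not called at day 7 (0.94 ± 0.43, adjusted p = 0.151), though it was without day 7 replicate 4 (1.39, adjusted p = 0.0171). Spi1, the gene for the lineage factor PU.1, was 1.96 ± 0.61 above sham at day 3 (adjusted p = 0.0163) and 2.003 ± 0.61 above it at day 7 (adjusted p = 0.0404). The day 7 arrays of Spi1 read -0.10, -0.90, -0.53 and 2.08 and overlapped sham, which ran from -2.84 to -0.66. Without day 7 replicate 4 its day 7 difference was 1.36 (adjusted p = 0.0631), and the call was lost on leaving out any other array but day 7 replicate 2 or sham replicate 3 (adjusted p 0.0501 to 0.0976). The CSF1 axis and lineage factors had 13 tested genes. Of these 6 were higher and 3 lower at day 3 (median 0.24), against 24.2% and 33.1% of all genes. The greatest decrease was in Csf2rb, the shared beta chain of the GM-CSF, IL-3 and IL-5 receptors, which fell by 4.62 ± 0.29 in log2, or 24.6-fold, at day 3 (adjusted p = 2.32e-06) and was 2.71 below sham at day 7. Runx1, a blood-lineage factor not well above background in sham, was at least 4.52-fold higher at day 3.

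**Figure D2:**
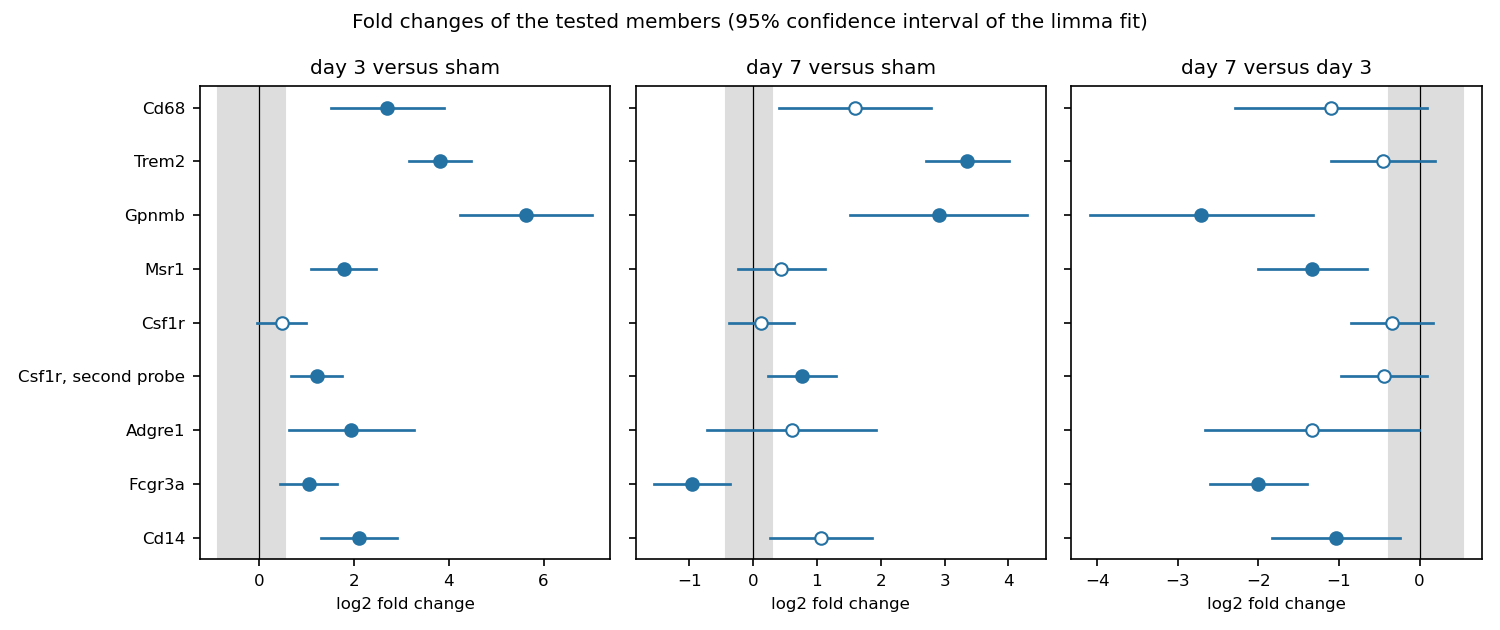
Log2 fold change (horizontal axis) of the 8 tested members and the second Csf1r probe in the 3 comparisons, with 95% confidence intervals; filled points have an adjusted p under 0.05, and the grey band spans the quartiles of all 18504 genes. The fitted values of Gpnmb and Msr1 against sham are measured against signals near background and are not bounds. Those of Adgre1 rest in part on 2 sham arrays near background. At day 7 Trem2 and Gpnmb are called higher and Fcgr3a lower.

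Fcgr3a, the low-affinity receptor for antibody-coated targets, was the 1 tested member called lower than sham at day 7. The sham arrays read -0.81, -1.73, -2.08 and -0.92, and the day 3 arrays -0.25, -0.18, -0.68 and -0.23. The day 7 arrays read -2.57, -2.57, -1.97 and -2.26. Day 3 lay wholly above the other groups, and day 7 overlapped only the lowest sham array, replicate 3. Fcgr3a rose 2.07-fold at day 3 (1.05 ± 0.28, adjusted p = 0.00655), then fell 4.01-fold to day 7 (-2.003 ± 0.28, adjusted p = 0.00085). Day 7 was 1.94-fold lower than sham (-0.96 ± 0.28, adjusted p = 0.0321), a call that did not hold with a block for slide (adjusted p = 0.0614) or for scan batch (0.0513), under the total-signal scaling (0.0951), or without sham replicate 1 (0.0845), sham replicate 4 (0.0719), day 7 replicate 1 (0.0815) or day 7 replicate 2 (0.0723). In all it was lost in 11 of 25 other settings that give a test, with adjusted p up to 0.551 under the normexp background model, and the direction stayed negative in each. Within slides the difference from sham was 0.19, 1.48 and 1.90 at day 3 and -1.70, -0.25 and -0.33 at day 7.

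Relatives and the adaptor of Fcgr3a were measured beside it. Fcgr1a, the high-affinity receptor, was higher at day 3 (1.58 ± 0.18, adjusted p = 3.54e-05) and at day 7 (0.97 ± 0.18, adjusted p = 0.00474), with all injury arrays above all sham arrays. Those are values of the brighter of its 2 probes. At the other the day 3 difference was 0.81 ± 0.25 (adjusted p = 0.0172) and the day 7 difference 0.18 ± 0.25, which was not called (adjusted p = 0.661, in the fit over probes). Fcgr2b, the inhibitory receptor, was higher at both days at its brighter probe (1.66 and 1.23, adjusted p = 4.95e-05 and 0.00256) and at its other probe (2.19 and 2.33, adjusted p = 5.91e-05 and 0.000485). The adaptor gene Fcer1g rose at day 3 (1.09 ± 0.21, adjusted p = 0.000839) and had 0.54 ± 0.21 at day 7 (adjusted p = 0.0827). Fcgr2a was named after its values were seen, because its probes disagreed. The brighter one was lower at day 3 (-0.63 ± 0.19, adjusted p = 0.0125 in the fit over probes) and the other was higher (2.50 ± 0.21, adjusted p = 6.45e-06). Fc gamma receptors have closely similar sequences and the cross-hybridisation of these probes was not tested. The list of Fc gamma receptors and their signalling had 11 tested genes. At day 3, 7 were higher and 1 lower (median 0.81), against 24.2% and 33.1% of all genes. The 1 lower was Fcgr2a, counted by its brighter probe. At day 7, 4 were higher and none lower (median 0.54), against 8.23% and 10.6%. The most similar named profiles to that of Fcgr3a were 2810025M15Rikl (r = 0.921), Fam25a (r = 0.905) and the glutathione transferase gene Gstp1 (r = 0.898).

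**Figure D3:**
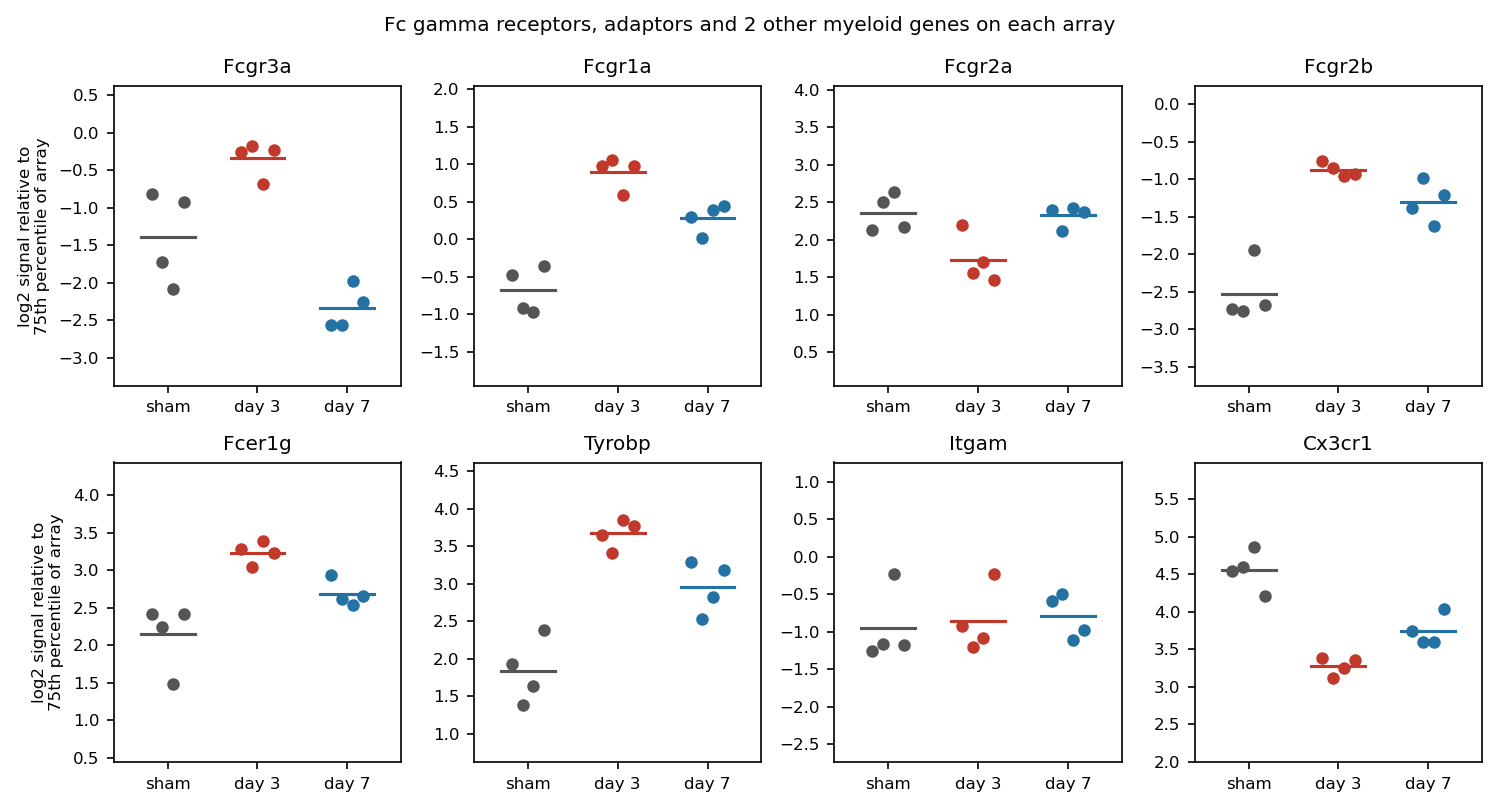
Signal of Fcgr3a, of 3 other Fc gamma receptor genes, of the adaptors Fcer1g and Tyrobp and of Itgam and Cx3cr1 on each array, as log2 of the signal over that array's 75th percentile, with bars at the group means; each vertical axis spans 4 log2 units. All points were well above background. At day 7 Fcgr3a lies below 3 of the 4 sham arrays, while the day 7 arrays of Fcgr1a and Fcgr2b lie above theirs. Genes with 2 probes are drawn from the brighter one. At the other Fcgr1a probe day 7 was not called against sham (0.18, adjusted p = 0.661). The other Fcgr2a probe was higher at day 3 (2.50, adjusted p = 6.45e-06), where the one drawn was lower.

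Cd14, the co-receptor for lipopolysaccharide, read -2.95, -2.57, -1.46 and -1.19 in sham, a spread of 1.76 in log2. At day 3 it was tight, at 0.03, -0.15, 0.20 and 0.15, and at day 7 it read -0.48, -0.93, -0.87 and -1.64. Day 3 lay above both other groups and day 7 overlapped the sham arrays. Cd14 rose 4.29-fold at day 3 (2.10 ± 0.37, adjusted p = 0.000498). At day 7 it had 1.07 ± 0.37 and was not called (adjusted p = 0.0609), and without sham replicate 4 it was (1.35, adjusted p = 0.0222), as it was without sham replicate 3 (1.26, adjusted p = 0.0473) or day 7 replicate 4 (1.28, adjusted p = 0.0368), and under the total-signal scaling (1.301, adjusted p = 0.0267). The decrease from day 3 to day 7 was 2.05-fold (adjusted p = 0.0482), and this call was lost in 13 of 25 other settings that give a test, with adjusted p up to 0.308, among them a block for slide (0.0751) or scan batch (0.0598) and leaving out any 1 of the 4 day 3 arrays (0.0757 to 0.104) or day 7 replicate 2 (0.0836), 3 (0.0651) or 4 (0.134). Within slides the difference from sham was 2.27, 2.66 and 1.32 at day 3 and 1.15, 1.69 and 0.41 at day 7, and the 3 named profiles most like that of Cd14 were Polr2g (r = 0.966), Cfap20 (r = 0.964) and Fcmr (r = 0.962).

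The other parts of the lipopolysaccharide receptor were measured beside Cd14. Tlr4 was not well above background in sham or at day 7. It was at least 1.76-fold higher at day 3 (adjusted p = 0.000638 for the fitted difference, not for the bound). Ly96 was higher at day 3 (1.33 ± 0.25, adjusted p = 0.00075), had 0.31 ± 0.25 at day 7 (adjusted p = 0.409), and fell between the days by 1.02 ± 0.25 (adjusted p = 0.0106). Lbp, the serum carrier of lipopolysaccharide, had 0.21 ± 0.51 at day 3 (adjusted p = 0.74). Of 9 tested genes of that pathway 3 were higher and none lower at day 3 (median 1.16), against 24.2% and 33.1% of all genes. At day 7 the 1 called was Tlr2, the receptor for bacterial lipoproteins, which stood 2.51 above sham at day 3 and 2.19 at day 7 (adjusted p = 2.26e-05 and 0.000575).

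Among the endocytic receptors Msr1 was measurable mainly at day 3. Its sham intensities ran from 6.40 to 21.4 units on 4 arrays that were not well above background. The day 3 values were -2.43, -3.54, -2.57 and -2.61, all well above background, and at day 7 only replicate 2 was, with values of -4.15, -3.66, -4.15 and -4.54. The day 3 arrays thus lay above both other groups. Msr1 was at least 2.13-fold higher at day 3 (adjusted p = 0.000521 for the fitted difference, not for the bound). The fitted difference from day 3 to day 7 was -1.34 ± 0.31 in log2 (adjusted p = 0.00935), a size that rests on readings near background on 3 of the 4 day 7 arrays. No fold against sham is given for day 7, where the fitted difference was 0.44 ± 0.31 (adjusted p = 0.343). Within slides the difference between the days was -1.09, -1.63 and -0.81. The named profiles most like it were Ro60 (r = 0.964), Tcaf1 (r = 0.938) and the scramblase gene Plscr2 (r = 0.938).

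Cd163 and Mrc1 gave little signal in any group. Cd163 was well above background on 1 of 12 arrays, sham replicate 2, at 44.0 units, and its other arrays ran from 4.48 to 17.9 units. Mrc1 was well above background on 1 of 12 arrays, day 3 replicate 1, at 36.8 units. The other Mrc1 arrays ran from 12.7 to 42.1 units with no group apart from the rest. No change of either gene was detectable at this signal, which does not show that the genes are silent. Partners of Cd163 could be measured. Hmox1, which breaks down haem, was higher at day 3 (1.35 ± 0.18, adjusted p = 7.85e-05) and had 0.18 ± 0.18 at day 7 (adjusted p = 0.51). Blvra, the next enzyme of that pathway, fell at day 3 by 1.32 ± 0.19 and was 1.83 ± 0.19 below sham at day 7 (adjusted p = 0.000164 and 0.000275). Of 7 tested genes of the haptoglobin-haem axis 1 was higher and 2 lower at day 3, against 24.2% and 33.1% of all genes. At day 7 none was higher and 2 were lower, against 8.23% and 10.6%. Hp, the haptoglobin gene, was not tested.

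Other scavenger and efferocytosis receptors, by which phagocytes take up dying cells, were measured beside Msr1. Of 13 tested, 7 were higher and 2 lower at day 3 (median 0.78), against 24.2% and 33.1% of all genes. At day 7, 4 were higher and 1 lower (median 0.52), against 8.23% and 10.6%. Colec12, a scavenger receptor of vessels and stroma, was at least 2.05-fold higher at day 3, and Axl, a receptor for apoptotic cells, rose by 2.68 ± 0.30. Its relative Mertk went the other way and was at least 3.38-fold lower at day 3, where no array was well above background. The adjusted p of Mertk, 0.000533, is that of the fitted difference and not of the bound. The bridging protein gene Pros1 was 2.75 ± 0.25 above sham at day 3 and 1.84 ± 0.25 at day 7, with 1 of 4 sham arrays well above background. Cd36, which proximal tubules and endothelium also express, had -0.26 ± 0.16 at day 3 and was not called (adjusted p = 0.2).

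Adgre1, the F4/80 gene, was weak and scattered in sham. It read -2.72 and -2.62 on sham replicates 1 and 2, and -5.53 and -4.97 on replicates 3 and 4, which were not well above background. At day 3 the values were -1.62, -2.33, -1.69 and -2.41, all above the sham arrays. At day 7 they were -2.90, -3.20, -3.00 and -4.30, within the sham range, and the last of these was not well above background. The fitted rise of Adgre1 at day 3 was 3.86-fold (1.95 ± 0.61, adjusted p = 0.0163), or 1.42 in log2 without sham replicate 3 (adjusted p = 0.0457). The size of this rise rests in part on the readings near background of sham replicates 3 and 4. Adgre1 was not called at day 7 (0.61 ± 0.61, adjusted p = 0.519), nor between the days (-1.34 ± 0.61, adjusted p = 0.11), though each day 7 array lay below each day 3 array. Within slides the difference from sham was 2.15, 0.61 and 3.20 at day 3 and 0.64, -0.38 and 1.93 at day 7. The named profiles most like it were Tp53rkb (r = 0.962), Pdk3 (r = 0.929) and Apaf1 (r = 0.925).

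**Figure D4:**
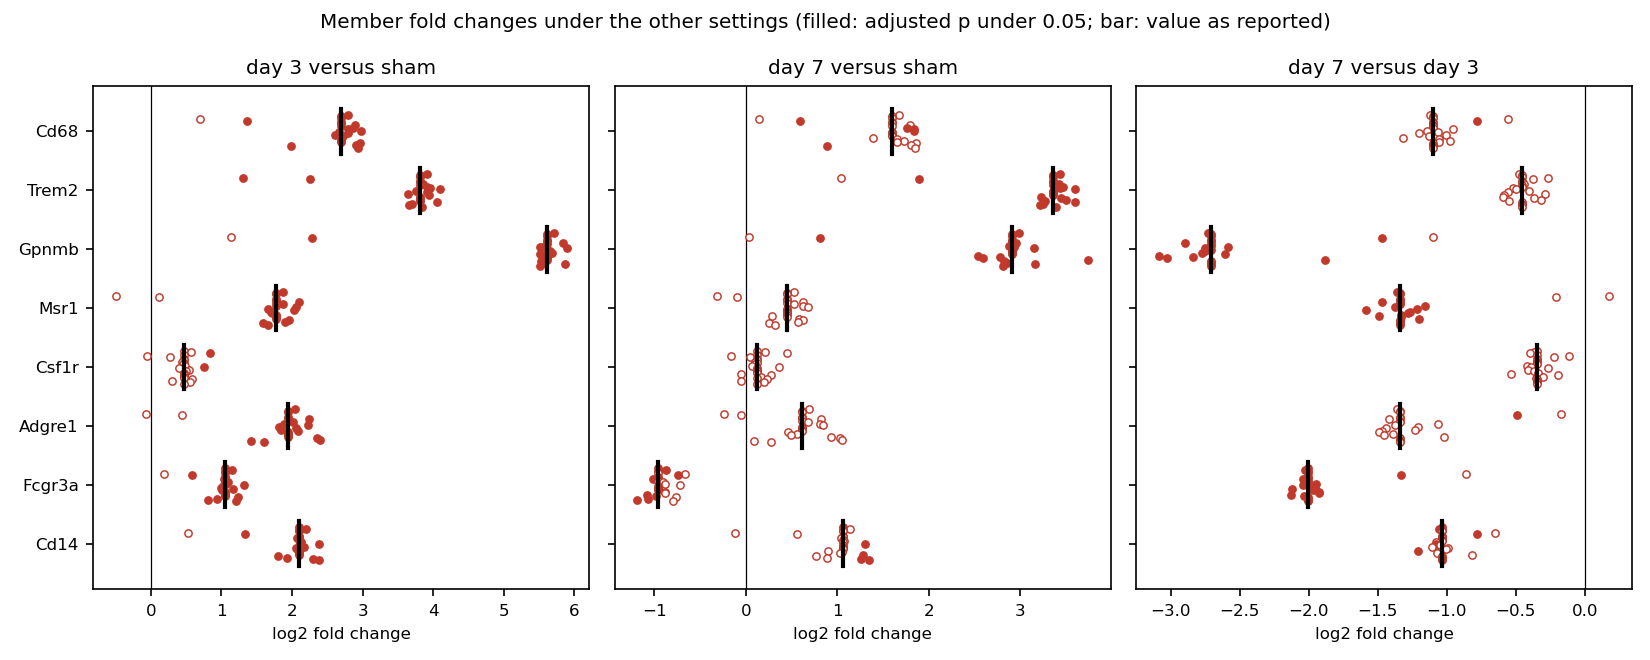
Log2 fold change (horizontal axis) of each tested member under the other settings that give a test, as points (filled where the adjusted p is under 0.05), with the reported value as a black bar. The points farthest towards 0 are mostly the 2 normexp settings; Trem2 at day 3 is called in every setting shown, and Fcgr3a at day 7 against sham is on both sides of the threshold but below 0 throughout.

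One processing choice changed these results most. With the normexp model for the background and an offset of 50, 1 of the 8 members was called higher at day 3 (Trem2, 1.31, adjusted p = 0.0425), the value of Msr1 turned to -0.49 (adjusted p = 0.497) and that of Adgre1 to -0.06 (adjusted p = 0.927). 6 arrays held up to 25 spots darker than their local background. Without such spots the same model called 5 members higher at day 3, and Msr1 (0.12, adjusted p = 0.559) and Adgre1 (0.44, adjusted p = 0.0517) were again not called.

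The fold changes of the members were also set against each other in pairs. Trem2 exceeded Csf1r, at its brighter probe, by 3.34 in log2 fold change at day 3. It exceeded Fcgr3a by 4.31 at day 7, each at the smallest two-sided exact permutation p of 0.0286. Over all 84 pair tests (28 pairs in 3 comparisons), 28 reached that p, and the lowest adjusted p was 0.0858. No lower p is possible with 4 arrays against 4, so the design itself limits how low the adjusted p can go. The correlation of their deviations from the group means, a description over 12 arrays, had a median of 0.16 over the 28 pairs and ran from -0.53 to 0.78.

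Genes of leukocytes at large were counted beside the members. The shares over all tested genes were 24.2% higher and 33.1% lower at day 3, and 8.23% and 10.6% at day 7. Of 18 tested integrin and pan-myeloid genes, 11 were higher and 1 lower at day 3 (median 1.05), and 9 higher and none lower at day 7 (median 0.68). Ms4a6a, a monocyte and macrophage gene, was 2.47 ± 0.42 above sham at day 3, Siglec1, a sialic acid receptor of macrophages, at least 3.06-fold higher, and Coro1a, a leukocyte actin regulator, 2.16 ± 0.22 above sham. Itgam, the integrin subunit CD11b, had 0.09 ± 0.27 at day 3 and 0.16 ± 0.27 at day 7 (adjusted p = 0.784 and 0.72). Of 11 tested genes of monocyte recruitment 5 were higher and 3 lower at day 3 (median 0.50). Ccl2, the main monocyte chemokine, was at least 7.88-fold higher at day 3 (adjusted p = 4.02e-05 for the fitted difference, not for the bound). Its receptor gene Ccr2 was 2.63 ± 0.36 above sham at day 3 and 1.90 ± 0.36 at day 7. Cx3cr1, a chemokine receptor of resident phagocytes in the kidney, fell by 1.27 ± 0.16 at day 3 and was 0.80 ± 0.16 below sham at day 7 (adjusted p = 7.06e-05 and 0.00725). Of 7 tested activation genes 5 were higher and none lower at day 3 (median 0.86), with Il1rn, the interleukin-1 receptor antagonist, 3.67 ± 0.33 above sham.

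**Figure D5:**
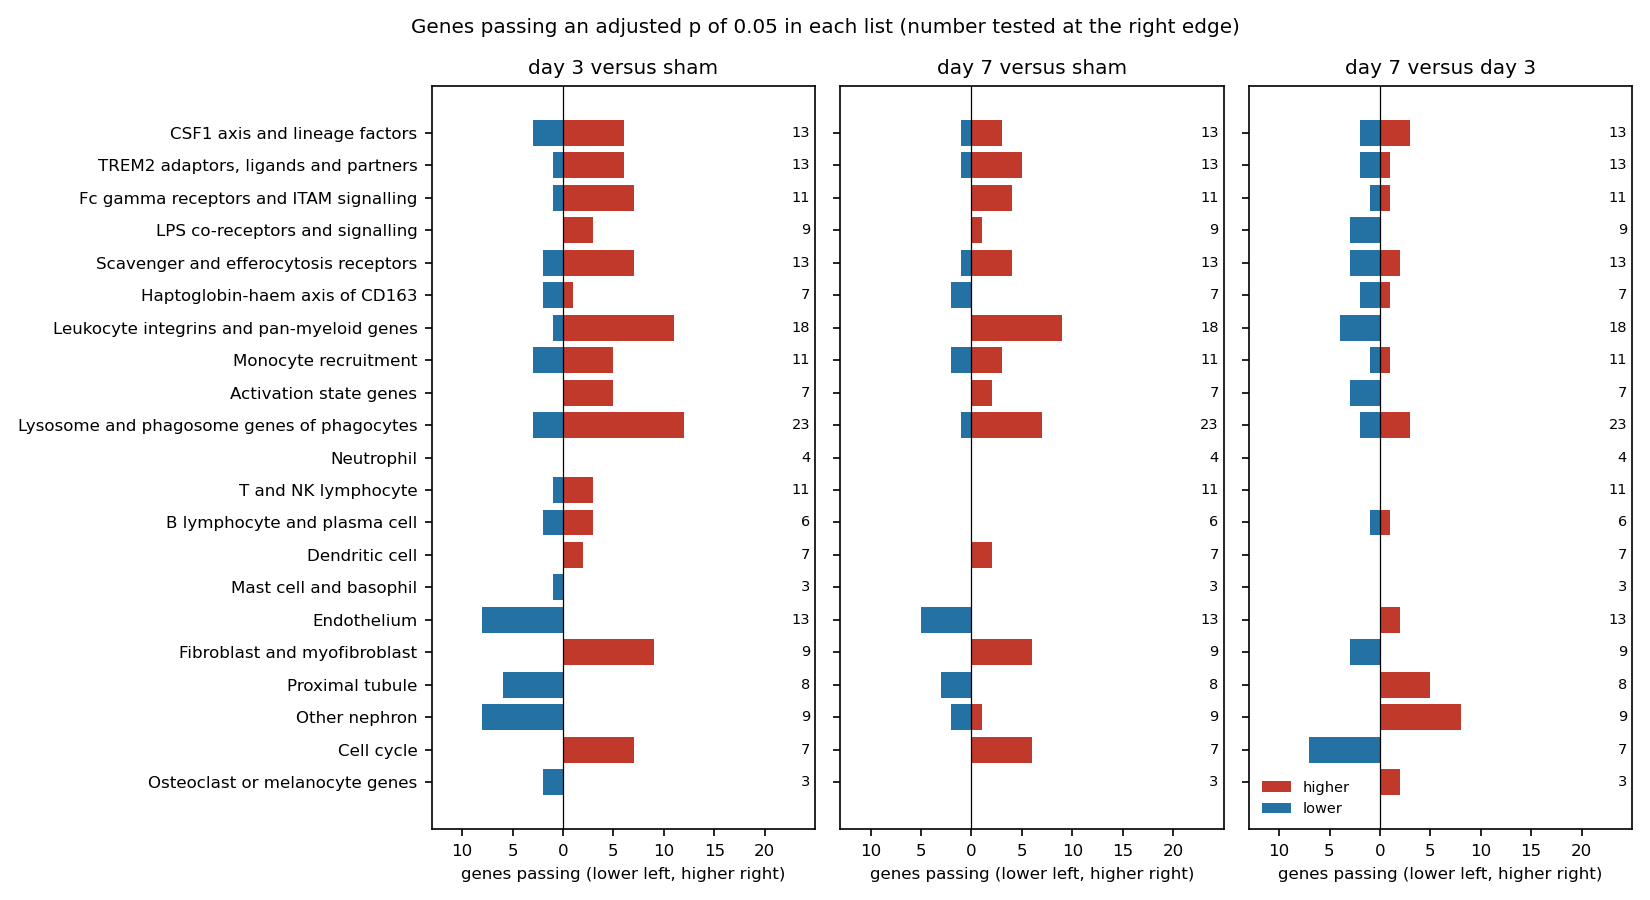
Number of genes of each companion or cell-type list with an adjusted p under 0.05, higher to the right and lower to the left of 0, in the 3 comparisons, with the number tested at the right edge of each panel. The bars of the fibroblast and cell-cycle lists lie to the right at day 3, and those of endothelium and nephron to the left. Those of the pan-myeloid and lysosome lists are longer to the right, with 1 and 3 genes to the left.

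Over all 120 tested companion genes of the 10 role lists, 61 were higher and 16 lower at day 3 (median 0.79), where 24.2% of all genes were higher and 33.1% lower. At day 7, 37 were higher and 8 lower (median 0.41), where 8.23% of all genes were higher and 10.6% lower. From day 3 to day 7, 12 were higher and 23 lower (median -0.32), where 18% of all genes were higher and 13.4% lower. Markers of other cells changed as well. Of 9 fibroblast genes 9 were higher at day 3 and 6 at day 7. The sum of the scaled signals of the fibroblast list was at most 28.5 in sham (lowest 16.6), between 80.8 and 127 at day 3 and between 58.1 and 76.8 at day 7. The named profiles most like that of Trem2 were the collagen genes Col4a1 (r = 0.985) and Col1a1 (r = 0.971) and, between them, Tmsb10 (r = 0.974). Of 8 proximal tubule genes 6 were lower at day 3 and 3 at day 7, with a sum between 325 and 332 in sham, between 40.2 and 105 at day 3 and between 118 and 225 at day 7. Of 7 cell-cycle genes 7 were higher at day 3 and 6 at day 7. The part of these changes in the members' values was not tested.

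Markers of other blood cells were counted too. Of all genes, 24.2% were higher and 33.1% lower at day 3, and 8.23% and 10.6% at day 7. Of 13 neutrophil genes with a probe 4 passed the filter and none was called in any comparison, with a sum between 0.71 and 1.65 in sham, between 0.56 and 0.80 at day 3 and between 0.57 and 1.21 at day 7. S100a8, S100a9, Ltf and Mmp8 of that list were among those that did not pass. The sums take in every gene of a list with a probe, also those near background. Of the 13 neutrophil genes, 5, 4 and 8 were well above background on no array of sham, day 3 and day 7. Array brightness differed between the groups, so the sums of these blood-cell lists are not read as changes. Of 11 T and NK genes 3 were higher at day 3 (Cd3g, Cd5 and Cd3d) and 1 lower, and none was called at day 7, with sums of 1.40 to 2.56, 2.04 to 2.53 and 1.72 to 2.52 in sham, day 3 and day 7. Of 7 dendritic cell genes 2 were higher at both days, Clec10a, a lectin shared with macrophages (3.56 and 2.88), and Cd83, at least 2.37-fold and at least 1.61-fold, the day 7 call of Cd83 being lost without day 7 replicate 1 (adjusted p = 0.0549). The dendritic sum was between 0.73 and 1.23 in sham, between 1.53 and 1.75 at day 3 and between 1.1 and 1.70 at day 7. Of 6 B cell genes 3 were higher and 2 lower at day 3 and none was called at day 7. The part of these cells in the members' values was not tested.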

How the data were processed

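Total RNA was taken from each left kidney with a spin-column kit and carried a Cy3 label, per the labels' protocols, which name a DNA labelling kit. The scans were quantified in Agilent Feature Extraction 9.5.1.1 with probes placed on rn4, per the file headers. The processed signal is a background-subtracted intensity with no scaling between arrays, per the file headers. The mean signal and the local background are intensities too, and the flags hold 0 or 1 (other values), per the file headers. The deposited value table of the authors holds log2 values centred on each probe's median (lowest r with the scanner values 0.998 over 30367 probes); it carries no level and was used as an alternative. No value column was left without a sample.

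From these files, outlier spots were set aside, log2 of the processed signal minus that of the 75th percentile of the array was taken, and spots of a probe were averaged. A probe was kept where, in 1 or more groups, each of the 4 arrays was well above background. The brightest probe stood for its gene, chosen on the mean over all arrays. limma 3.58.1 in R 4.3.3 (lmFit, eBayes) fitted 3 group means over 12 arrays with no covariate, two-sided, with Benjamini-Hochberg adjustment over 18504 genes and a threshold of 0.05. The procedure was tested on simulated data. p-values measure the spread between rats, 4 in each group, and the number of arrays limits the precision. Probe names came from the accession or symbol in the annotation through RefSeq names for 21168 probes and otherwise from the file for 9199.

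The members and lists were chosen with earlier results of these data known, so their counts are descriptions. All 10 members with each probe are named, beside 22 partner genes whatever their value (1 is not reported here), up to 3 called genes of highest change in a list and comparison, and the 3 most correlated named genes of a member. Same-numbered replicates of different groups were compared for pairing (12 pairs, correlation of deviations from -0.33 to 0.14). The labels do not state that the numbers pair rats, and low correlations cannot exclude it. The alternatives were other scalings, background models, filters, probe rules and blocks, single groups, and leaving out each array. Msr1 has no matched promoter here, and exon annotation of rn4 was not used here.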

Additional observations from a re-analysis of the deposited data

Results flagged for a closer look

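A value was looked at again when 1 of the 4 arrays of a group stood far from the other 3 by Dixon's test at 95%, which chance does in about 1 of 20 groups; it happened in 5 of 33 groups of 4 member values. Cd68 in sham replicate 3 was -5.22, with the others from -2.47 to -2.30. Gpnmb in sham replicate 3 was -5.44, with the others from -6.49 to -6.34, all of them not well above background. Msr1 at day 3 replicate 2 was -3.54, with the others from -2.61 to -2.43. Fcgr3a at day 3 replicate 3 was -0.68, with the others from -0.25 to -0.18. The second Csf1r probe at day 3 replicate 4 was -0.52, with the others from -1.21 to -1.11.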

How the results depend on the processing

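The numbers of genes called were 10602, 3492 and 5814 (day 3 against sham, day 7 against sham, day 7 against day 3), and normexp gave 3166, 91 and 159. Under normexp 1 and 0 members were higher at day 3 and day 7, and 3 called member values reversed: Msr1 (-0.49) and Adgre1 (-0.064) at day 3 and Msr1 between the days (0.18). Of the values not called, Csf1r at day 3 (-0.050) and Csf1r (-0.16), Msr1 (-0.32), Adgre1 (-0.24) and Cd14 (-0.12) at day 7 also turned negative under normexp, and Csf1r at day 7 did without sham replicate 2 (-0.048) or day 7 replicate 1 (-0.058). Requiring signal on all 12 arrays, which drops 5 members, gave 2 and 1 members higher, total-signal scaling 4 at day 7, and fitting only the 2 groups compared 2093 genes at day 7. Leaving out 1 array gave 9299 to 10647, 2044 (without day 7 replicate 3) to 3480, and 3470 (without day 3 replicate 4) to 6665 genes, with 7 to 7, 2 to 4 (4 without sham replicate 3) and 0 to 0 members higher. The replicate number as a block, which the labels do not state to pair rats, gave 10132, 2468 and 4691 genes and 8, 2 and 0 members higher. That block called Csf1r at day 3 (adjusted p = 0.0343) and ended the calls of Fcgr3a at day 7 (0.054) and Cd14 between the days (0.0778). The causes were not tested. Dim signals limit Cd163 and Mrc1 throughout, and Gpnmb, Msr1 and Adgre1 in sham.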
